A study of Drosophila melanogaster with 18 samples.

Results

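The cuticle protein families described here are the protein-coding genes of the deposited table whose names begin with Cpr and a digit, Lcp, Ccp84, Twdl, Acp65 or Edg and a digit, or are Pcp. The genes named Lcp65Ag were left out by the same rule. The rule reads names only, uses no measured value, and takes 119 of the 15602 genes in the table, of which 13451 are protein-coding. The members are 70 Cpr genes, 25 Twdl genes, 12 Lcp genes, 7 Ccp84 genes, 3 Edg genes, Pcp and Acp65Aa. All 119 were matched by FlyBase identifier to the Ensembl annotation of assembly BDGP6.54, which gave every chromosome position below. The authors' values were made on build BDGP5, so these positions describe the genes and not the mapped reads.

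The tissue was the wing imaginal disc, the larval epithelial sac that forms the adult wing, dissected from wild-type OregonR larvae 96 h after egg laying. Discs were cultured with 20-hydroxyecdysone (20E, the steroid hormone that drives insect moulting) at 20 nM for 4 h or 9 h, with 5 µg/ml bovine insulin for 4 h or 9 h, or with no hormone for 4 h, and uncultured discs were frozen soon after dissection. Culture medium was Grace's medium with 5% fetal bovine serum in all cultured groups, the no hormone group included. Each of the 6 groups held 3 libraries, described in the series as biological replicates, and several discs were cultured together. No culture without hormone was kept for 9 h, so at 9 h a change with time cannot be told apart from a change with the hormone.

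Insect cuticle is a matrix of chitin fibres and proteins that the epidermis lays down on its outer side and replaces at each moult. Most Cpr and Lcp proteins carry the Rebers and Riddiford consensus, a chitin-binding domain, and Tweedle (Twdl) proteins are a separate family of structural cuticle proteins. Pulses of 20E time the moults, and different sets of cuticle genes are switched on for the larval, pupal and adult cuticle as hormone titres rise and fall.

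Expression was given as FPKM (fragments per kilobase of transcript per M fragments), and the libraries held an estimated 28.22 to 38.16 M fragments each. All 8 wing disc markers (vg, nub, ap, sd, wg, en, ci and hh) reached 1 FPKM in all 18 libraries, with summed levels of 487 to 626 FPKM. The 6 fat body markers summed to at most 1.06 FPKM, and the 5 salivary gland markers to at most 0.641 FPKM. Gut markers, 6 of 10 at 1 FPKM or more, summed to 14712 FPKM in uncultured replicate 2, 970 FPKM in no hormone replicate 1 and 304 and 220 FPKM in insulin 4 h replicates 2 and 3. Their sum was at most 66.2 FPKM in the other 14 libraries. In bulk discs, fewer cells of a type and less RNA per cell cannot be told apart.

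Of the 119 members, 47 reached 1 FPKM in at least 3 of the 18 libraries and were tested, which is 39.5% of the members against 58.63% of protein-coding genes. A member of low level could pass only through the group where it was high, so counts over the 47 describe the table and say nothing of all members. The Lcp family passed with 11 of 12 genes, the Cpr family with 29 of 70 and the Twdl family with 5 of 25. Edg91 passed out of the 3 Edg genes, Pcp passed, and none of the 7 Ccp84 genes nor Acp65Aa did. By chromosome arm, the tested members were 21 of 44 on 3L, 14 of 27 on 2R, 4 of 7 on 2L, 4 of 8 on X and 4 of 33 on 3R.

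Cuticle protein genes lie in tandem runs, and the runs differed in how many of their genes passed the filter. With start sites less than 25 kb apart counted as neighbours, 89 members fell into 17 runs and 30 stood alone. The largest run, 15 members at 65A (chr3L:6131242-6161589), had 10 tested members. The run of Lcp1 to Lcp4 (chr2R:8430115-8438495) had all 4, although their medians were 0.28 to 0.47 FPKM outside 20E 4 h replicate 2 and uncultured replicate 1, and the run of Cpr67Fa1, Cpr67Fa2 and Cpr67Fb (chr3L:10889990-10894693) had all 3. At the other end, the run of Edg84A and the Ccp84 genes (chr3R:6684445-6704903) had 0 of 8 tested members. The longest Tweedle run, TwdlM to TwdlD (chr3R:26619118-26641054), had 1 of 12.

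The 72 members that were not tested were low in every library or high in very few. Under 1 FPKM in all 18 libraries stood 63 of them, and 8 of these were listed at 0 throughout (Cpr49Aa, Cpr5C, Cpr76Ba, Cpr76Bb, TwdlD, TwdlO, TwdlQ and TwdlR). The other 9 reached 1 FPKM in 1 or 2 libraries. The highest were Cpr47Eg at 6 FPKM and Cpr49Af at 4.82 FPKM, both in uncultured replicate 1, followed by TwdlT at 2.57 FPKM in insulin 9 h replicate 2. Just inside the threshold lay Lcp3, with exactly 3 libraries at 1 FPKM or more, and just outside it lay Ccp84Ag, Cpr47Eg, Cpr49Af, Cpr56F and TwdlT, with 2 libraries each.

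A small set of members was expressed in every library. At least 1 FPKM in all 18 libraries was found for 12 members: Cpr12A, Cpr49Ac, Cpr49Ag, Cpr49Ah, Cpr51A, Cpr57A, Cpr64Aa, Cpr65Ec, Cpr66D, Edg91, TwdlBeta and TwdlE. The same 12 had a median of at least 5 FPKM over the libraries. The highest medians were 45.2 FPKM for Cpr64Aa, 35.4 FPKM for Cpr12A, 35.3 FPKM for Cpr51A, 31.5 FPKM for Cpr66D and 31.5 FPKM for Cpr49Ag. Their ranges differed widely, since Cpr49Ag stayed between 19.4 and 41.5 FPKM while Cpr51A spanned 1.33 to 361 FPKM.

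**Figure D1:**
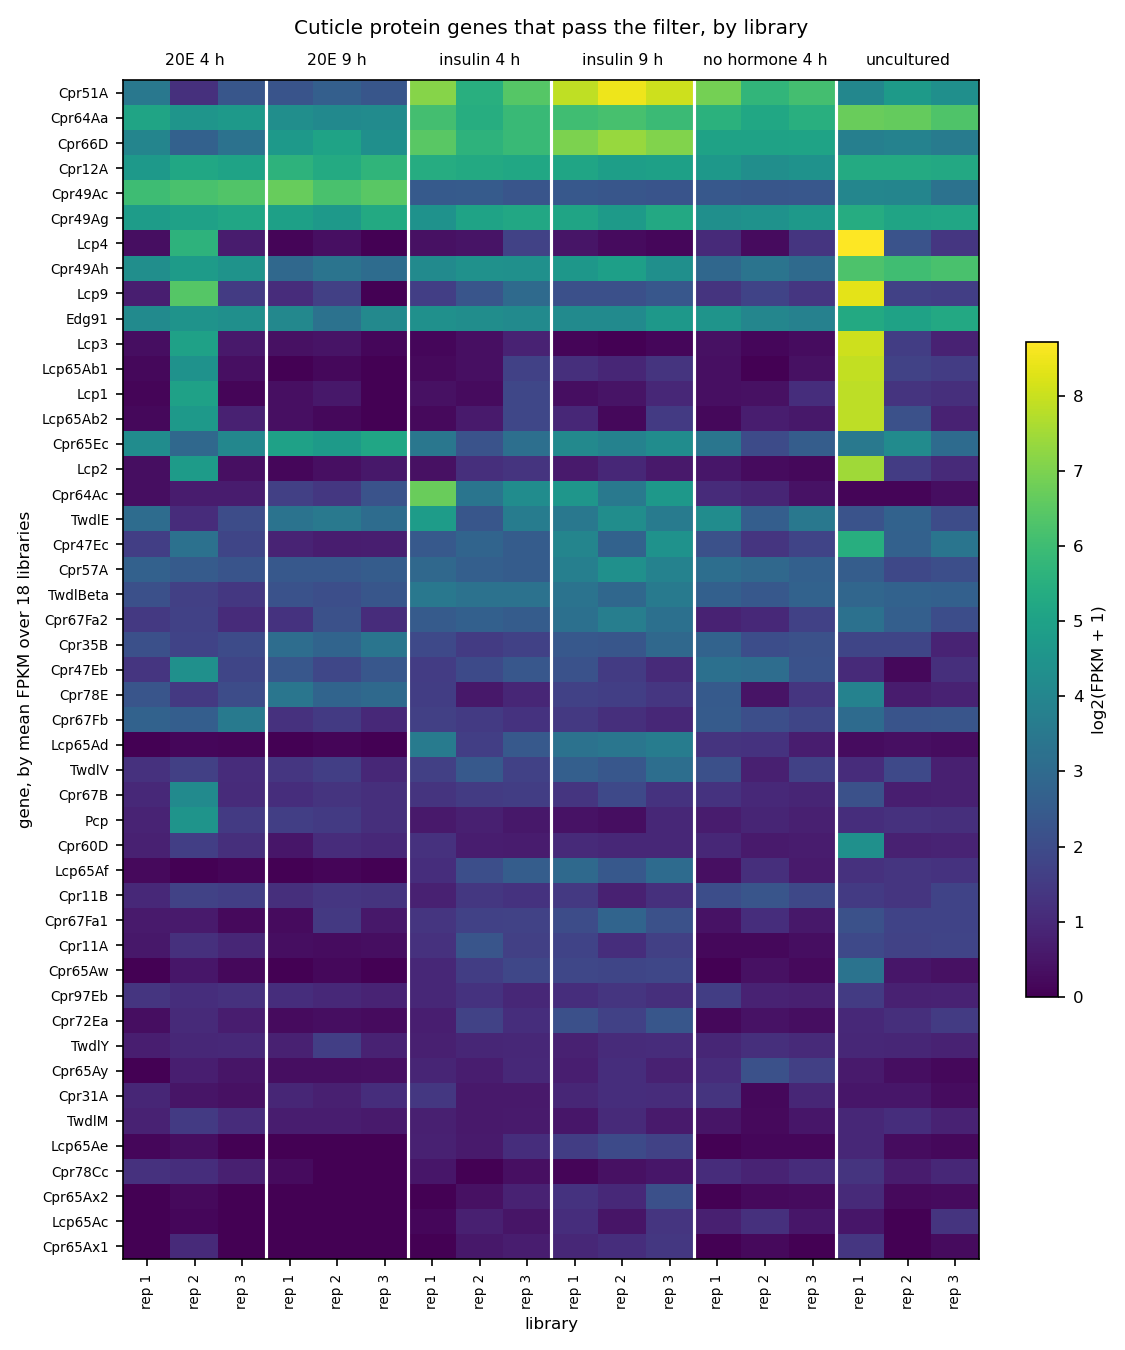
Expression of the 47 tested cuticle protein genes (rows, ordered by mean FPKM) in the 18 libraries (columns, 3 replicates per group), as log2(FPKM + 1) in colour. Cpr49Ac is bright in the 6 20E libraries, Cpr51A and Cpr66D are bright in insulin 9 h, and the larval Lcp genes are bright in uncultured replicate 1 and 20E 4 h replicate 2.

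Only 2 of the 18 libraries carried larval cuticle transcripts that their replicates hardly held. Lcp1, Lcp2, Lcp3 and Lcp4 encode major proteins of the third-instar larval cuticle, made by the larval epidermis. Lcp1 stood at 0.0835, 30.5 and 0.0947 FPKM in 20E 4 h and at 229, 1.49 and 1.25 FPKM in uncultured discs. Lcp4 stood at 0.251, 48.8 and 0.577 FPKM in 20E 4 h and at 418, 3.69 and 1.59 FPKM in uncultured discs. Lcp9 stood at 0.648, 83.8 and 1.86 FPKM in 20E 4 h and at 326, 2.19 and 2.04 FPKM in uncultured discs. In each of these genes 1 library of the group was far above the other replicates, and it was the same library each time.

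Summed over the 12 Lcp genes, 20E 4 h libraries held 2.01, 267 and 4.53 FPKM and uncultured libraries 1890, 19.1 and 12.7 FPKM. Lcp1, Lcp2, Lcp3, Lcp4, Lcp9, Lcp65Ab1 and Lcp65Ab2 were at least 10-fold above both other replicates in both libraries, at 20.9 to 83.8 FPKM in 20E 4 h replicate 2 and 174 to 418 FPKM in uncultured replicate 1. The ratio of 20E 4 h replicate 2 over uncultured replicate 1 lay between 0.0866 and 0.257 for these 7 genes, with a median of 0.117. In the other 16 libraries none of the 7 exceeded 7.07 FPKM. Lcp65Ab1 and Lcp65Ab2 are near-identical copies, and the authors' handling of reads that match both is not given, so how their FPKM divides between them is uncertain.

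The 2 libraries also differed from each other in the cuticle genes they held. Pcp, which encodes a pupal cuticle protein, stood at 21.6 FPKM in 20E 4 h replicate 2 and 1.22 FPKM in uncultured replicate 1, a ratio of 17.7. Cpr67B stood at 17.1 FPKM in 20E 4 h replicate 2 and 3.42 FPKM in uncultured replicate 1, a ratio of 4.99. The opposite held for Cpr60D, which was at 2.09 FPKM in 20E 4 h replicate 2 and 19.9 FPKM in uncultured replicate 1. Cpr78E, Cpr65Aw and Cpr47Eg also stood apart in uncultured replicate 1, at 13.6, 8.96 and 6 FPKM.

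In uncultured replicate 1, members made up 11 of the 32 genes (22 protein-coding) that stood at least 10-fold above both other replicates with at least 5 FPKM. In 20E 4 h replicate 2, members made up 9 of 45 such genes, 14 of them protein-coding. The gut markers summed to 3.67 FPKM in 20E 4 h replicate 2 and 4.41 FPKM in uncultured replicate 1, among the low libraries. No list of larval epidermis markers was used, and the part of that tissue in these transcripts was not tested. Lcp65Ab1 (chr3L:6149548-6149960) stood at 0.129, 20.9 and 0.296 FPKM in 20E 4 h, 0, 0.144 and 0 FPKM in 20E 9 h, 0.162, 0.286 and 2.25 FPKM in insulin 4 h and 1.23, 0.906 and 1.5 FPKM in insulin 9 h. It stood at 0.293, 0 and 0.318 FPKM in no hormone and 242, 2.33 and 1.95 FPKM in uncultured discs. Of the 7 Lcp genes it was the only one that passed a test, in no hormone against uncultured discs (log2 change -3.48 ± 1.36 (SE), limma adjusted p = 0.0323). Without uncultured replicate 1 the log2 change was -1.39, and the call was lost. It was also lost without each no hormone library, without the filter and when only the groups compared were fitted.

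**Figure D2:**
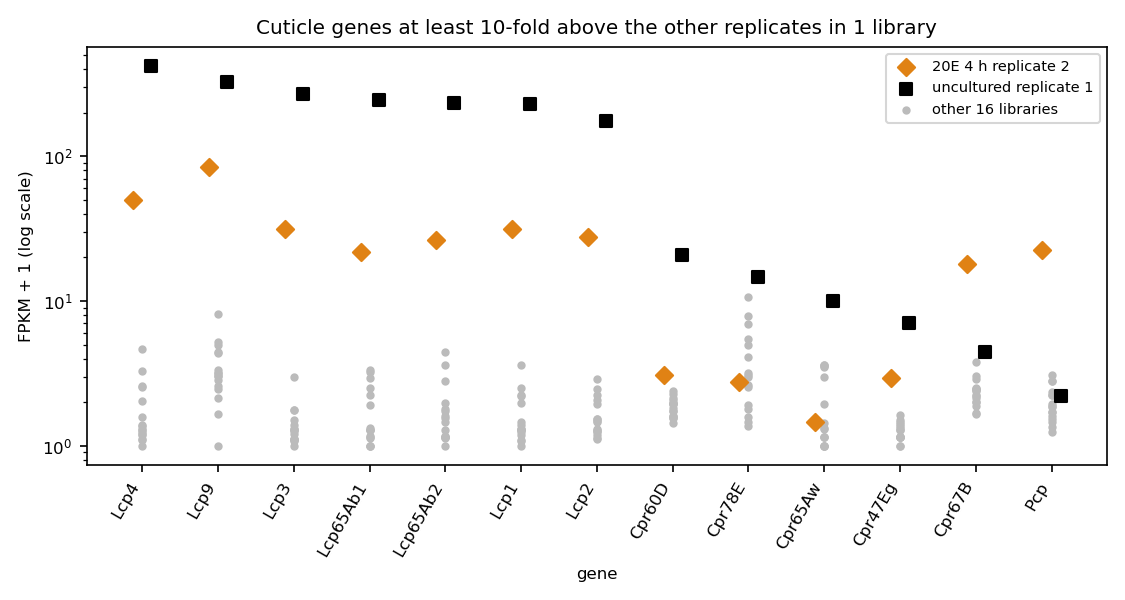
FPKM + 1 on a log axis for the 13 cuticle protein genes that stand at least 10-fold above both other replicates in 20E 4 h replicate 2 (orange diamonds), uncultured replicate 1 (black squares) or both, with the other 16 libraries in grey. The 7 Lcp genes are high in both libraries and lower in the 20E library, while Pcp and Cpr67B are higher in the 20E library.

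Changes between groups were fitted with limma on log2(FPKM + 1) over all 8524 genes tested, with members called at an adjusted p under 0.05. Changes are on that scale, which understates the change of low genes. For a single gene, 3 libraries a side allow no exact permutation p below 0.1, and the calls therefore depend on the spread limma shares across genes. At least 1 of 8 comparisons called 35 of the 47 tested members, and 12 were called in none. The share of members called was below the share of all genes called in each of the 8. Values in every library are given for the 23 called members whose mean reached 5 FPKM in at least 1 group. The labels and notes do not give the strand setting of the counting, so reads of a gene and of an antisense or overlapping partner cannot be told apart.

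Members fell and rose in 20E at 4 h, and more of the called members were higher than lower in insulin. In 20E 4 h against no hormone, limma called 13 members (27.7%), with 6 higher and 7 lower, against 30.7% of all genes tested (15.7% higher and 15% lower). In insulin 4 h against no hormone it called 16 members (34%), with 12 higher and 4 lower, against 57.9% of all genes (30.3% higher and 27.6% lower), and 31 members were not called. The median log2 change of the 47 members was 0.22 in 20E and 0.31 in insulin, beside -0.01 and 0.01 over all genes. Both comparisons share the 3 no hormone libraries. In 20E 4 h, 9 of the members stood at least 10-fold above both other replicates in replicate 2. The 20E median includes these values and was not taken without that library. TwdlM, higher in 20E, passed the filter only through 20E 4 h, and Cpr65Ay, lower in both hormones, only through no hormone. These genes thus had to differ in those directions.

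Compared directly, 20E discs had the lower level for most called members, and more so at 9 h. In 20E 4 h against insulin 4 h, 5 members were higher and 12 lower (36.2% called), against 27.6% and 29.2% of all genes and 56.8% in either direction. The 5 higher calls became 3 without insulin 4 h replicate 2, without insulin 4 h replicate 3 and when only the groups compared were fitted. TwdlM, among the 5, passed the filter only through 20E 4 h, so it had to be higher there. In 20E 9 h against insulin 9 h, 2 members were higher and 21 lower (48.9% called), against 26.6% and 26.4% of all genes and 53% in either direction. The 2 higher calls became 4 without the filter and 5 when only the groups compared were fitted. The median log2 change of the members was -0.00 at 4 h and -0.55 at 9 h, beside -0.01 over all genes at both times. The 4 h median also includes the 9 members that stood apart in 20E 4 h replicate 2. At 4 h the members thus had fewer higher calls for their number than all genes did, and no more lower calls. At 9 h they had more lower calls and fewer higher calls for their number than all genes did. Of the 21 lower members, Lcp65Ae, Lcp65Ac, Cpr65Ax1 and Cpr65Ax2 passed the filter only through insulin 9 h, so these had to differ in this direction.

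Within each hormone, few members changed with time in 20E, and none was called lower with time in insulin. In 20E 9 h against 20E 4 h, 4 were higher and 4 lower (17%), against 22.9% of all genes (11.2% higher and 11.7% lower). In insulin 9 h against insulin 4 h, 11 were higher and 0 lower (23.4%), against 44.6% of all genes (21.3% higher and 23.3% lower), and 15 members had an unadjusted p under 0.05 in either direction. Lcp65Ae and Cpr65Ax2 passed the filter only through insulin 9 h. Without insulin 4 h replicate 2 the count was 7, and without insulin 9 h replicate 3 it was 6. The count of members lower with time in insulin was 1 without the filter, without insulin 9 h replicate 1 and when only the groups compared were fitted.

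Culture alone was set against fresh tissue in no hormone 4 h against uncultured discs. Here 8 members were higher and 13 lower (44.7%), against 70.6% of all genes (35.1% higher and 35.5% lower), and the median log2 change of the members was -0.46, beside -0.00 over all genes. In uncultured replicate 1, 11 members, the untested Cpr47Eg among them, stood at least 10-fold above both other replicates. The median was not taken without that library. The lower count became 20 without uncultured replicate 2 and 22 without uncultured replicate 3. The higher count became 5 without no hormone replicate 1, and 4 without that library and uncultured replicate 2 together. Called higher were Cpr11B, Cpr35B, Cpr47Eb, Cpr51A, Cpr57A, Cpr65Ay, Cpr66D and Lcp65Ad. Of these, Cpr65Ay passed the filter only through no hormone, so it had to be higher there. Called lower were Cpr11A, Cpr12A, Cpr47Ec, Cpr49Ac, Cpr49Ag, Cpr49Ah, Cpr64Aa, Cpr67Fa1, Cpr67Fa2, Cpr72Ea, Edg91, Lcp65Ab1 and TwdlM.

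Among the Cpr genes, Cpr49Ac (FBgn0033725, chr2R:12386666-12390057, plus strand) had the largest rise in 20E. It stood at 63.6, 73.7 and 79.5 FPKM in 20E 4 h and 4.31, 4.07 and 4.21 FPKM in no hormone discs. At 9 h it stood at 103, 72.4 and 87.8 FPKM in 20E and 4.26, 4.04 and 3.81 FPKM in insulin. Insulin 4 h gave 4.58, 4.72 and 3.87 FPKM, and uncultured discs 14.8, 14.7 and 8.79 FPKM. All 6 20E libraries lay far above the other 12, and uncultured discs lay between the 20E libraries and the remaining cultures, with no overlap.

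In FPKM, the mean of Cpr49Ac was 17.2-fold higher in 20E 4 h than in no hormone, a log2 change of 3.81 ± 0.16 (SE, limma adjusted p = 4.7e-10). Against insulin the log2 change was 3.76 at 4 h and 4.12 ± 0.16 at 9 h (adjusted p = 8.2e-11). In insulin 4 h against no hormone it was 0.05 ± 0.16 (adjusted p = 0.815), and the groups overlapped. No hormone culture lowered it by a log2 change of -1.37 ± 0.16 relative to uncultured discs (adjusted p = 2.01e-06). From 4 h to 9 h its log2 change was 0.27 in 20E (adjusted p = 0.253) and -0.10 in insulin (adjusted p = 0.665).

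Cpr12A (chrX:13543643-13544907) was higher in both hormones than in no hormone discs. It stood at 24.8, 35.3 and 32.3 FPKM in 20E 4 h, 40.7, 37.7 and 35.4 FPKM in insulin 4 h and 23.9, 18.9 and 20.7 FPKM in no hormone. In 20E 9 h it stood at 49.0, 38.9 and 51.5 FPKM and in insulin 9 h at 33.9, 28.4 and 29.6 FPKM, and uncultured discs held 39.0, 38.7 and 37.0 FPKM. No hormone was the low group, with every library under those of the other 5 groups.

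Over no hormone, the log2 change of Cpr12A was 0.51 ± 0.13 in 20E (adjusted p = 0.00632, lost when only the groups compared were fitted) and 0.82 ± 0.13 in insulin (adjusted p = 5.64e-05). At 9 h, 20E was above insulin by 0.58 (log2, adjusted p = 0.00134), while at 4 h the log2 change was -0.31 (adjusted p = 0.0506). Its log2 change with time was 0.58 in 20E, a call lost when only the groups compared were fitted, and -0.30 in insulin, and the difference between them was 0.88 ± 0.18 (adjusted p = 0.00255).

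Cpr67Fb (chr3L:10894173-10894693) was high early in 20E. It stood at 5.66, 5.09 and 11.0 FPKM in 20E 4 h, 2.15, 1.78 and 1.40 FPKM in insulin 4 h and 4.61, 3.23 and 2.50 FPKM in no hormone. The 9 h values were 1.37, 1.78 and 1.02 FPKM in 20E and 1.74, 1.25 and 0.967 FPKM in insulin, and uncultured discs held 7.30, 3.85 and 3.91 FPKM. The 4 h groups did not overlap, and the 9 h groups did. The log2 change of 20E over insulin was 1.51 ± 0.27 at 4 h (adjusted p = 0.000225) and 0.05 at 9 h (adjusted p = 0.906). The fall with time in 20E was -1.73 (log2), and the difference between hormones in that change was -1.47 ± 0.38 (adjusted p = 0.0112). Its calls against no hormone were lost without the filter and when some single libraries were left out.

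**Figure D3:**
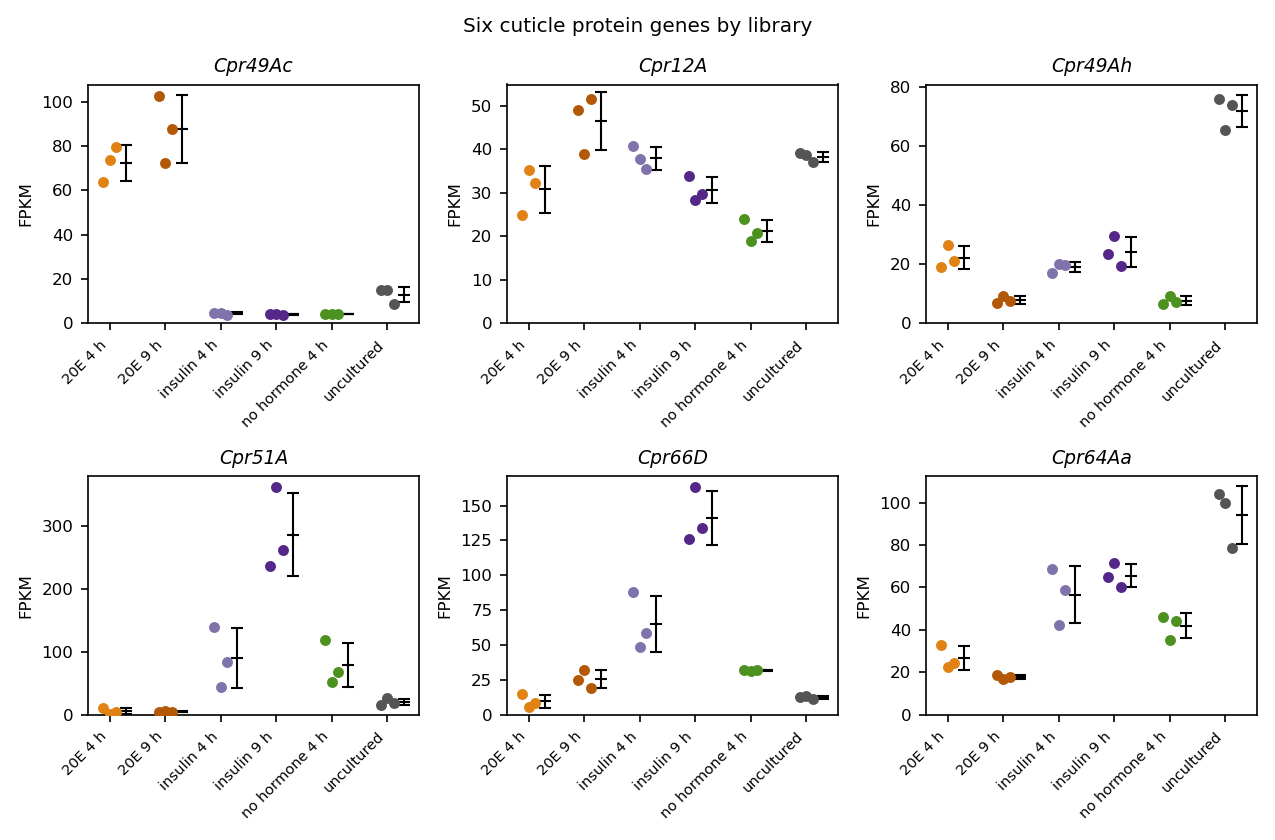
FPKM of Cpr49Ac, Cpr12A, Cpr49Ah, Cpr51A, Cpr66D and Cpr64Aa in the 6 groups, with 1 point per library and a bar for the mean ± SD (n = 3). Cpr49Ac is high in both 20E groups, Cpr51A and Cpr66D are highest in insulin 9 h, and Cpr49Ah and Cpr64Aa are highest in uncultured discs.

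The largest fall in 20E belonged to Cpr51A (FBgn0033942, chr2R:14512559-14515211, minus strand). It stood at 10.2, 1.33 and 4.05 FPKM in 20E 4 h, 139, 44.5 and 84.2 FPKM in insulin 4 h and 119, 51.7 and 68.0 FPKM in no hormone. By 9 h it was at 3.84, 5.18 and 4.08 FPKM in 20E and 237, 361 and 261 FPKM in insulin. Uncultured discs held 15.5, 26 and 19.1 FPKM. Every 20E library was below every other library, and insulin 9 h was above every other group.

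At 4 h the log2 change of Cpr51A was -3.90 ± 0.49 in 20E over no hormone (adjusted p = 3.11e-05) and 0.11 ± 0.49 in insulin over no hormone (adjusted p = 0.872). Against insulin it was -4.00 at 4 h and -5.73 ± 0.49 at 9 h (adjusted p = 2.68e-07), where the insulin mean was 65.5-fold that of 20E in FPKM. Culture without hormone raised it by 1.87 ± 0.49 (log2, adjusted p = 0.00327). With time it rose by 1.79 (log2, adjusted p = 0.00837) in insulin and had a log2 change of 0.07 in 20E (adjusted p = 0.944). The difference between these changes was -1.72 ± 0.69, which did not pass (adjusted p = 0.0799).

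Cpr66D (chr3L:8640439-8643584) was lower in 20E and higher in insulin at 4 h. It stood at 14.7, 5.56 and 8.67 FPKM in 20E 4 h, 87.9, 48.7 and 58.9 FPKM in insulin 4 h and 31.7, 31.3 and 32.4 FPKM in no hormone. At 9 h it stood at 25.0, 32.0 and 19.3 FPKM in 20E and 126, 163 and 134 FPKM in insulin, and uncultured discs held 12.7, 13.5 and 11.4 FPKM. The 3 groups at 4 h did not overlap, nor did the 2 groups at 9 h.

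Relative to no hormone, its log2 change was -1.72 ± 0.27 in 20E (adjusted p = 0.000201) and 0.97 ± 0.27 in insulin (adjusted p = 0.00587). With time Cpr66D rose in both hormones, by 1.38 in 20E (log2, adjusted p = 0.00226) and 1.14 in insulin (adjusted p = 0.00311). The 20E call was lost when only the groups compared were fitted. The difference between the changes with time was 0.24 ± 0.38 (adjusted p = 0.677). At 9 h 20E was lower than insulin by -2.45 ± 0.27 (log2, adjusted p = 3.03e-06).

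Cpr64Aa (chr3L:4207838-4209178) was highest in fresh tissue. It stood at 33.0, 22.6 and 24.4 FPKM in 20E 4 h, 68.6, 42.3 and 58.9 FPKM in insulin 4 h and 46.2, 35.3 and 44.2 FPKM in no hormone. After 9 h in 20E it stood at 18.7, 16.7 and 17.6 FPKM and in insulin 9 h at 65.0, 71.3 and 60.3 FPKM. Uncultured discs, at 104, 99.9 and 78.6 FPKM, lay above every cultured library, and every 20E library lay below the rest.

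Its log2 change was -1.15 ± 0.17 in no hormone over uncultured (adjusted p = 2.5e-05) and -1.83 ± 0.17 in 20E 9 h over insulin 9 h (adjusted p = 6.43e-07). In 20E 4 h over no hormone Cpr64Aa changed by -0.64 (log2, adjusted p = 0.0103), a call that was lost without 20E 4 h replicate 2. Insulin 4 h over no hormone gave 0.41 (log2, adjusted p = 0.0541). Its fall of -0.55 with time in 20E (log2, adjusted p = 0.0316) was lost without the filter and without each of several libraries.

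The neighbour Cpr64Ac (chr3L:4211964-4212915) was higher in insulin, with a wide spread between replicates. It stood at 0.238, 0.567 and 0.591 FPKM in 20E 4 h, 104, 9.38 and 17.8 FPKM in insulin 4 h and 1.08, 0.864 and 0.342 FPKM in no hormone. The 9 h values were 2.12, 1.68 and 3.70 FPKM in 20E and 22.7, 10.4 and 24.3 FPKM in insulin, and uncultured discs held 0.0968, 0.0894 and 0.25 FPKM. All 6 insulin libraries lay above the other 12. The log2 change in insulin 4 h over no hormone was 3.98 ± 0.59 (adjusted p = 4.23e-05), and 3.01 without insulin 4 h replicate 1, the library at 104 FPKM. In 20E 4 h over no hormone it was -0.25 (adjusted p = 0.799), and in 20E 9 h over insulin 9 h -2.48 ± 0.59 (adjusted p = 0.00275).

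Cpr57A and Cpr67Fa2 were also highest in insulin at 9 h. Cpr57A (chr2R:20548368-20550117) stood at 4.28, 4.22 and 4.85 FPKM in 20E 9 h and 12.5, 19.5 and 13.4 FPKM in insulin 9 h. At 4 h it stood at 5.46, 4.65 and 3.85 FPKM in 20E, 6.67, 5.23 and 4.84 FPKM in insulin and 7.87, 6.61 and 5.40 FPKM in no hormone, groups that overlapped. Insulin 9 h thus stood alone, above every library of the other groups. Its log2 change was -1.54 ± 0.19 in 20E 9 h over insulin 9 h (adjusted p = 9.94e-06) and 1.28 with time in insulin (adjusted p = 0.000105). The difference between hormones in the change with time was -1.33 ± 0.27 (adjusted p = 0.00268). Its rise of 0.73 (log2) in no hormone over uncultured discs, at 4.95, 2.74 and 3.28 FPKM, was lost without the 2 libraries of highest gut markers.

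Cpr67Fa2 (chr3L:10891714-10892516) stood at 1.73, 2.24 and 1.12 FPKM in 20E 4 h, 4.63, 5.42 and 4.83 FPKM in insulin 4 h and 0.768, 0.999 and 2.22 FPKM in no hormone. By 9 h it was at 1.40, 3.51 and 1.17 FPKM in 20E and 8.40, 12.3 and 8.26 FPKM in insulin, and uncultured discs held 8.62, 5.25 and 3.13 FPKM. Insulin lay above 20E at both times with no overlap. The log2 change was 1.40 ± 0.32 in insulin 4 h over no hormone (adjusted p = 0.00179) and -1.88 ± 0.32 in 20E 9 h over insulin 9 h (adjusted p = 0.000214). Reads shared with its near-identical neighbour Cpr67Fa1, which moved the same way at lower levels, make the division between them uncertain.

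**Figure D4:**
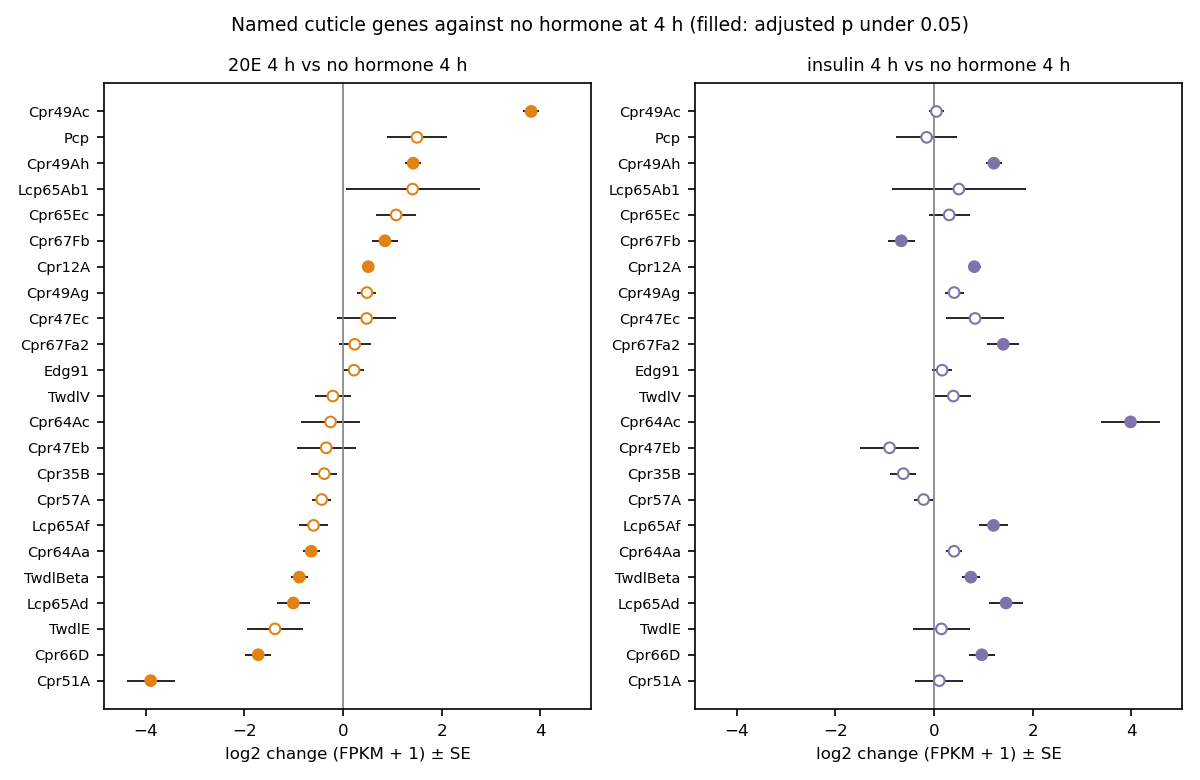
Log2 change (FPKM + 1) with its SE for the 23 cuticle genes described by library, in 20E 4 h over no hormone (left) and insulin 4 h over no hormone (right), with filled points where the limma adjusted p is under 0.05. Cpr49Ac rises in 20E by 3.81, Cpr51A falls by -3.90, and Cpr64Ac rises in insulin by 3.98, and both panels share the no hormone libraries.

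In the 49A run, Cpr49Ah (chr2R:12413962-12415170) fell in culture and was higher in either hormone than in no hormone at 4 h. It stood at 19.0, 26.3 and 21.1 FPKM in 20E 4 h, 17.0, 20.2 and 19.5 FPKM in insulin 4 h and 6.5, 9.30 and 7.13 FPKM in no hormone. Uncultured discs held 75.8, 65.5 and 73.9 FPKM. At 9 h it stood at 6.73, 9.18 and 7.53 FPKM in 20E and 23.2, 29.5 and 19.3 FPKM in insulin. The 20E 4 h libraries thus overlapped insulin 4 h, and the 20E 9 h libraries overlapped the range of no hormone at 4 h.

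For Cpr49Ah, the log2 change was -3.08 ± 0.16 in no hormone over uncultured (adjusted p = 3.14e-10), 1.42 ± 0.16 in 20E 4 h over no hormone (adjusted p = 1.04e-05) and 1.21 ± 0.16 in insulin 4 h over no hormone (adjusted p = 1.27e-05). With time it fell by -1.39 in 20E (log2, adjusted p = 4.93e-05) and changed by 0.31 in insulin (adjusted p = 0.126). The difference between these was -1.70 ± 0.23 (adjusted p = 0.000159).

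Cpr49Ag (chr2R:12407793-12408523), of the same run, was called in no comparison of the hormones. It stood at 27.5, 30.6 and 34.6 FPKM in 20E 4 h, 20.9, 32.3 and 36.4 FPKM in insulin 4 h and 19.4, 20.7 and 25.3 FPKM in no hormone. In 20E 9 h it stood at 29.7, 25.5 and 37.8 FPKM and in insulin 9 h at 33.0, 25.8 and 36.9 FPKM. Uncultured discs held 41.5, 33.4 and 34.3 FPKM, above every no hormone library, and the hormone groups overlapped at both times. It was called only in no hormone over uncultured discs, with a log2 change of -0.72 ± 0.19 (adjusted p = 0.00401).

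In the 47E run, Cpr47Ec (chr2R:11259106-11259976) was low in 20E at 9 h. It stood at 0.815, 0.624 and 0.670 FPKM in 20E 9 h and 14.6, 5.75 and 20.7 FPKM in insulin 9 h. At 4 h it stood at 2.10, 8.52 and 2.57 FPKM in 20E, 4.41, 6.07 and 4.74 FPKM in insulin and 3.51, 1.53 and 2.42 FPKM in no hormone, and uncultured discs held 42.6, 5.53 and 9.38 FPKM. Uncultured replicate 1 stood above all, and 20E 4 h replicate 2 stood above its own group. These are the 2 libraries with larval cuticle transcripts. The 9 h groups of Cpr47Ec did not overlap. Its log2 change was -2.95 ± 0.60 in 20E 9 h over insulin 9 h (adjusted p = 0.000764) and -2.08 in no hormone over uncultured discs (adjusted p = 0.00591), the second being -1.28 without uncultured replicate 1.

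Cpr47Eb (chr2R:11255167-11255983) stood at 8.25, 7.76 and 3.62 FPKM in no hormone and 1.03, 0.151 and 1.24 FPKM in uncultured discs, with no overlap. The log2 change was 2.05 ± 0.60 (adjusted p = 0.0068), and the call was lost without no hormone replicate 1 and uncultured replicate 2, the libraries of highest gut markers. In 20E it stood at 1.51, 19.7 and 2.55 FPKM at 4 h and 4.19, 2.63 and 4.10 FPKM at 9 h, and in insulin at 1.90, 2.87 and 4.13 FPKM at 4 h and 3.62, 1.82 and 1.04 FPKM at 9 h. The high 20E value came from 20E 4 h replicate 2, the library with larval cuticle transcripts.

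Cpr35B and Cpr65Ec were the Cpr genes called higher with time in both hormones along with Cpr66D. Cpr35B (chr2L:14424315-14425189) stood at 7.67, 6.07 and 9.45 FPKM in 20E 9 h and 3.36, 2.36 and 2.95 FPKM in 20E 4 h. In insulin it stood at 4.30, 4.07 and 6.67 FPKM at 9 h and 2.79, 1.86 and 2.22 FPKM at 4 h, and it stood at 5.79, 3.19 and 3.47 FPKM in no hormone and 2.56, 2.50 and 0.832 FPKM in uncultured discs. The 9 h libraries lay above the 4 h libraries in each hormone. The log2 change with time was 1.16 ± 0.26 in 20E (adjusted p = 0.00586) and 0.85 ± 0.26 in insulin (adjusted p = 0.0158), the second lost without insulin 4 h replicate 2 or insulin 9 h replicate 3. Its rise of 0.83 (log2, adjusted p = 0.0108) in no hormone over uncultured discs was lost without no hormone replicate 1 or uncultured replicate 3 and when only the groups compared were fitted.

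Cpr65Ec (chr3L:7093204-7093841) stood at 30.7, 25.9 and 34.3 FPKM in 20E 9 h and 18, 6.70 and 15.2 FPKM in 20E 4 h. In insulin it stood at 16, 13.7 and 18 FPKM at 9 h and 10.1, 3.74 and 8.09 FPKM at 4 h. No hormone discs held 9.70, 2.99 and 4.89 FPKM and uncultured discs 10.6, 17.4 and 7.28 FPKM. Each hormone's 9 h libraries lay above its 4 h libraries. The log2 change with time was 1.22 ± 0.41 in 20E (adjusted p = 0.0451) and 1.11 ± 0.41 in insulin (adjusted p = 0.0411), and both calls were lost without the filter and in most of the fits that left out 1 library.

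Of the Lcp65A genes, larval cuticle protein genes of the 65A run, Lcp65Ad, Lcp65Ae and Lcp65Af were called lower in 20E than in insulin at both times, and Lcp65Ac at 9 h. Lcp65Ae and Lcp65Ac passed the filter only through insulin 9 h, so at 9 h these had to differ in this direction. Lcp65Ab1 and Lcp65Ab2 were called at neither time, and Lcp65Aa was not tested. Lcp65Ad (chr3L:6143395-6144101) stood at 0, 0.102 and 0.0979 FPKM in 20E 4 h, 11.3, 2.09 and 4.38 FPKM in insulin 4 h and 1.46, 1.45 and 0.63 FPKM in no hormone. The 9 h values were 0, 0.0951 and 0 FPKM in 20E and 8.64, 9.60 and 11.7 FPKM in insulin, and uncultured discs held 0.209, 0.289 and 0.216 FPKM. Every insulin library lay above every other library, and every 20E library lay below 0.11 FPKM. Outside insulin, Lcp65Ad reached 1 FPKM only in no hormone replicates 1 and 2. It thus passed the filter through its insulin libraries, which favoured this direction. The log2 change was 1.46 ± 0.34 in insulin 4 h over no hormone (adjusted p = 0.00184, lost at 0.0538 when only the groups compared were fitted), and -2.47 and -3.40 ± 0.34 in 20E over insulin at 4 h and 9 h (adjusted p = 2.2e-05 and 1.25e-06). Its calls in no hormone over uncultured (0.79), 20E 4 h over no hormone (-1.01) and insulin 9 h over 4 h (0.89, log2) were lost without the filter and in several fits that left out 1 library.

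Lcp65Af (chr3L:6136215-6136791) stood at 0.172, 0 and 0.0985 FPKM in 20E 4 h, 1.19, 3.25 and 4.88 FPKM in insulin 4 h and 0.293, 1.25 and 0.53 FPKM in no hormone. By 9 h it was at 0, 0.0957 and 0 FPKM in 20E and 6.90, 4.23 and 7.23 FPKM in insulin. Uncultured discs held 1.36, 1.55 and 1.41 FPKM. The 20E libraries lay below all others, while insulin 4 h overlapped no hormone and insulin 9 h. The log2 change was 1.21 ± 0.29 in insulin 4 h over no hormone (adjusted p = 0.00243) and -2.76 ± 0.29 in 20E 9 h over insulin 9 h (adjusted p = 2.27e-06). Its rise with time in insulin, 0.88 (log2, adjusted p = 0.0237), was lost under a pseudocount of 0.1 and in several other fits.

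Of the Edg genes, named as ecdysone-dependent genes of cultured imaginal discs and encoding pupal cuticle proteins, only Edg91 passed the filter. Edg91 (chr3R:17610856-17611511) stood at 17.2, 21.1 and 19.1 FPKM in 20E 4 h, 19.5, 18.3 and 16.9 FPKM in insulin 4 h and 21.5, 14.9 and 13.1 FPKM in no hormone. Uncultured discs held 38.4, 31.3 and 37.4 FPKM, above every cultured library. The log2 change was -1.09 ± 0.21 in no hormone over uncultured (adjusted p = 0.000263). In 20E 9 h, at 15.6, 8.73 and 16.1 FPKM, it was lower than in insulin 9 h, at 16.8, 17.2 and 24.0 FPKM, by -0.52 ± 0.21 (log2, adjusted p = 0.0493), a call lost without 20E 9 h replicate 2, without each insulin 9 h library, without the filter and when only the groups compared were fitted. Edg78E stayed under 1 FPKM, with a highest value of 0.77 FPKM in no hormone replicate 1.

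Pcp (chr2L:7021682-7022470) is nested in an intron of the Gart gene. It stood at 0.841, 21.6 and 1.81 FPKM in 20E 4 h, 0.529, 0.700 and 0.459 FPKM in insulin 4 h and 0.597, 0.890 and 0.712 FPKM in no hormone. At 9 h it stood at 2.08, 1.81 and 1.26 FPKM in 20E and 0.352, 0.246 and 0.952 FPKM in insulin, and uncultured discs held 1.22, 1.36 and 1.26 FPKM. The 20E groups lay above the insulin groups at both times. Its log2 change of 1.65 ± 0.61 in 20E 4 h over insulin 4 h (adjusted p = 0.0321) became 0.54 without 20E 4 h replicate 2. The call was lost in 6 of 13 alternatives: without that library and uncultured replicate 1 together, without each of the 3 insulin 4 h libraries, without the filter and when only the groups compared were fitted.

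Among the Tweedle genes, TwdlBeta (chr2R:11862537-11863252) moved in opposite directions in the hormones. It stood at 3.34, 2.15 and 1.64 FPKM in 20E 4 h, 10.3, 8.84 and 8.63 FPKM in insulin 4 h and 5.43, 4.24 and 5.75 FPKM in no hormone. After 9 h in 20E it stood at 3.58, 3.25 and 4.00 FPKM and in insulin 9 h at 8.93, 6.46 and 10.7 FPKM, and uncultured discs held 6.35, 5.62 and 5.36 FPKM. At 4 h the 3 groups did not overlap, with no hormone between. The log2 change was -0.88 ± 0.18 in 20E over no hormone (adjusted p = 0.00158), 0.75 ± 0.18 in insulin over no hormone (adjusted p = 0.00216) and -1.05 ± 0.18 in 20E 9 h over insulin 9 h (adjusted p = 0.00017).

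TwdlE (chr2L:7857957-7860839) spread widely among replicates, at 7.43, 1.17 and 3.07 FPKM in 20E 4 h, 27.1, 4.03 and 11.6 FPKM in insulin 4 h and 18, 5.14 and 10.2 FPKM in no hormone. It stood at 8.86, 10.6 and 7.42 FPKM in 20E 9 h, 10.3, 18.4 and 11.3 FPKM in insulin 9 h and 3.64, 5.73 and 3.04 FPKM in uncultured discs. The 4 h groups overlapped, and its call in 20E 4 h over insulin 4 h (log2 change -1.53 ± 0.57, adjusted p = 0.0342) became -0.92 and was lost without insulin 4 h replicate 1. It was lost in 7 of 14 alternatives, among them without 20E 4 h replicate 2, 20E 4 h replicate 3 or insulin 4 h replicate 3, without the filter and when only the groups compared were fitted.

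TwdlV (chr3R:4254708-4255833) stood at 1.60, 2.08 and 0.942 FPKM in 20E 9 h and 5.22, 4.21 and 7.77 FPKM in insulin 9 h, with no overlap and a log2 change of -1.40 ± 0.36 (adjusted p = 0.00476). It stood at 1.38, 2.11 and 1.13 FPKM in 20E 4 h, 2.17, 4.38 and 2.20 FPKM in insulin 4 h, 3.41, 0.715 and 2.18 FPKM in no hormone and 1.14, 2.83 and 0.684 FPKM in uncultured discs. It was called in no other comparison. TwdlY was called in none, and TwdlM stayed at or under 1.76 FPKM.

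**Figure D5:**
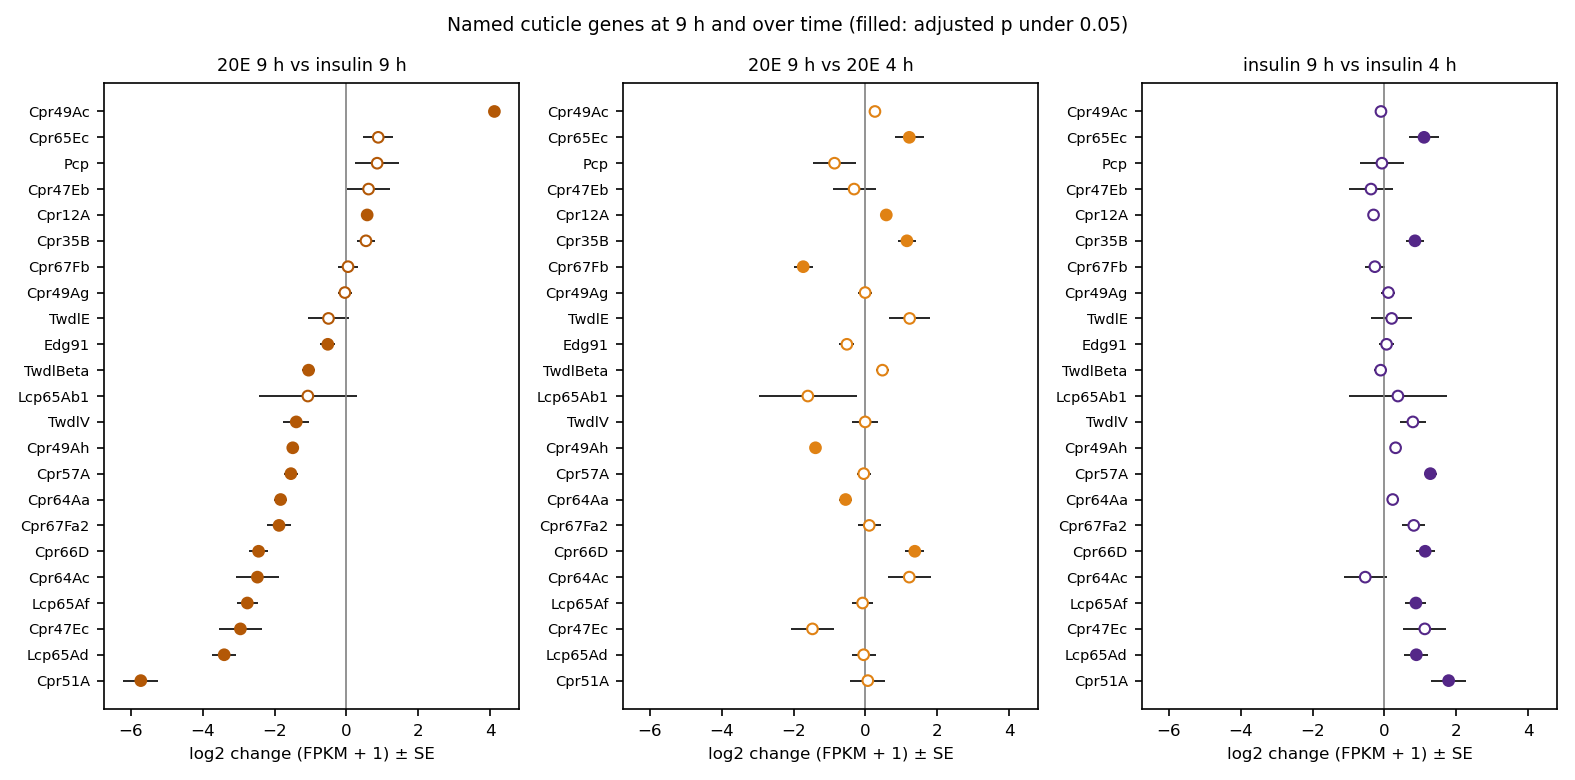
Log2 change (FPKM + 1) with its SE for the 23 cuticle genes described by library, in 20E 9 h over insulin 9 h (left), 20E 9 h over 4 h (middle) and insulin 9 h over 4 h (right), with filled points where the limma adjusted p is under 0.05. Cpr49Ac lies at 4.12 and Cpr51A at -5.73 on the left, and the filled points on the right are all above 0.

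A further 12 members were called with every group mean under 5 FPKM: Cpr11A, Cpr11B, Cpr65Aw, Cpr65Ax1, Cpr65Ax2, Cpr65Ay, Cpr67Fa1, Cpr72Ea, Cpr78Cc, Lcp65Ac, Lcp65Ae and TwdlM. Cpr11A (chrX:12486970-12489448) stood at 0.486, 1.33 and 0.919 FPKM in 20E 4 h, 1.38, 3.91 and 2.15 FPKM in insulin 4 h and 0.138, 0.147 and 0.239 FPKM in no hormone. Uncultured discs averaged 2.52 FPKM, which neither mean at 4 h exceeded (2.48 FPKM in insulin and 0.912 FPKM in 20E). Both hormone groups lay above no hormone with no overlap, at log2 changes of 0.68 in 20E (adjusted p = 0.0375) and 1.5 in insulin (adjusted p = 5.83e-05). Cpr65Ay went the other way, with log2 changes of -1.23 in 20E (adjusted p = 0.00136) and -0.77 in insulin (adjusted p = 0.0131) over no hormone. It passed the filter only through no hormone, so it had to differ in this direction.

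In the 65A run, Cpr65Ax1, Cpr65Ax2, Lcp65Ac and Lcp65Ae were listed at 0 in all 3 20E 9 h libraries. In insulin 9 h Lcp65Ae stood at 2.00, 2.91 and 2.31 FPKM, Cpr65Ax2 at 1.40, 1.03 and 3.40 FPKM, Cpr65Ax1 at 0.972, 1.19 and 1.69 FPKM and Lcp65Ac at 1.20, 0.421 and 1.51 FPKM. The log2 changes of 20E 9 h over insulin 9 h were -1.76 for Lcp65Ae, -1.47 for Cpr65Ax2, -1.18 for Cpr65Ax1 and -0.99 for Lcp65Ac. These genes passed the filter only through insulin 9 h, so they had to differ in this direction. Cpr65Ax1 and Cpr65Ax2 are near-identical copies. For the shortest tested member, Cpr65Ax1, 1 FPKM corresponds to about 5.33 fragments at the lowest depth, so values near 0 rest on few reads.

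Summed without the Lcp genes, the members reached 279 to 335 FPKM in 20E 4 h and 295 to 343 FPKM in 20E 9 h. Insulin libraries reached 330 to 601 FPKM at 4 h and 681 to 837 FPKM at 9 h, no hormone 245 to 369 FPKM and uncultured discs 361 to 515 FPKM. The sum thus separated insulin 9 h from all other groups, without overlap, but only with Cpr51A included. Cpr51A alone gave 237 to 361 FPKM of it in insulin 9 h. It gave 237 of the 681 FPKM in insulin 9 h replicate 1. Uncultured replicate 1 reached 515 FPKM, in a group where Cpr51A averaged 20.2 FPKM.

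Some marker lists of other cells moved with the hormone and time comparisons. The 6 trachea markers summed to 369 to 436 FPKM in 20E 9 h and 526 to 671 FPKM in insulin 9 h, and all 6 reached 1 FPKM in every library. Without Gasp, a chitin-binding protein gene that is also on the chitin list, the other 5 summed to 275 to 313 FPKM in 20E 9 h and 210 to 251 FPKM in insulin 9 h. Of the 8 haemocyte markers only the collagen genes Cg25C and vkg reached 1 FPKM, and the list summed to 22 to 23.9 FPKM in 20E 9 h and 102 to 105 FPKM in insulin 9 h. The 6 others averaged at most 0.555 FPKM in either 9 h group. Pxn, srp, eater and He averaged higher in 20E 9 h than in insulin 9 h, and Hml and NimC1 lower, with Pxn at 0.555 FPKM in 20E 9 h and 0.316 FPKM in insulin 9 h and Hml at 0.0312 FPKM in 20E 9 h and 0.0456 FPKM in insulin 9 h. At 4 h the haemocyte list summed to 31.4 to 39.2 FPKM in 20E, 97.1 to 109 FPKM in insulin and 75.1 to 93.9 FPKM in no hormone. The 6 adepithelial muscle precursor markers summed to 106 to 114 FPKM in insulin 9 h and 78.7 to 87.1 FPKM in insulin 4 h. Of these 6, 5 were called higher and 0 lower with time in insulin, against 21.3% and 23.3% of all genes. The 6 differentiated muscle markers summed to 303 to 314 FPKM in no hormone and 399 to 422 FPKM in uncultured discs. Most of these sums was Tm1, at 282 to 292 FPKM in no hormone and 367 to 375 FPKM in uncultured discs. Of the 6 genes, 3 were called lower and 0 higher in no hormone over uncultured discs, against 35.5% and 35.1% of all genes. The part of trachea, muscle precursors or other cells in the cuticle values was not tested.

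Genes that make and organise chitin were followed in the same comparisons. Of 19 tested genes for chitin synthesis and assembly, 2 were higher and 9 lower in 20E 4 h over no hormone, against 15.7% higher and 15% lower over all genes. In insulin 4 h over no hormone 7 were higher and 6 lower, against 30.3% and 27.6% of all genes. In 20E 9 h over insulin 9 h, 3 were higher and 13 lower, against 26.6% and 26.4% of all genes, with a median log2 change of -0.74, beside -0.01 over all genes. In insulin 9 h over 4 h 13 were higher and 0 lower, against 21.3% and 23.3% of all genes. The chitin-binding protein gene obst-E averaged 1.33 ± 0.45 FPKM in 20E 9 h and 96.3 ± 12.4 FPKM in insulin 9 h (SD, n = 3), a log2 change of -5.39. Cda5, a chitin deacetylase gene, averaged 1.08 ± 0.12 FPKM in 20E 9 h and 28.4 ± 1.05 FPKM in insulin 9 h, a log2 change of -3.82. Cht5, a moulting chitinase gene, went the other way, at 132 ± 8.34 FPKM in 20E 9 h and 31.7 ± 6.85 FPKM in insulin 9 h, a log2 change of 2.04.

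Of 10 tested hormone-regulated factor genes, 6 were higher and 2 lower in 20E 4 h over no hormone, where 30.7% of all genes were called in either direction. A count of 8 higher and 2 lower held in 20E 9 h over insulin 9 h, where 53% of all genes were called. Eip75B, an early ecdysone-induced nuclear receptor gene, averaged 54.5 ± 5.46 FPKM in 20E 4 h and 2.68 ± 1.01 FPKM in no hormone (SD, n = 3), a log2 change of 3.95. The nuclear receptor gene ftz-f1, which acts when 20E titres fall, averaged 10.1 ± 1.25 FPKM in 20E 4 h and 44.8 ± 3.12 FPKM in no hormone, a log2 change of -2.04. Of 7 tested cuticle tanning genes, 1 was higher and 0 lower in 20E 4 h over no hormone, and 2 were higher and 1 lower in 20E 9 h over insulin 9 h, beside the same 30.7% and 53%. The gene higher in both was b (black), which averaged 4.57 FPKM in 20E 4 h and 1.67 FPKM in no hormone, and 4.08 FPKM in 20E 9 h and 0.722 FPKM in insulin 9 h. Ddc, the dopa decarboxylase gene, averaged 3.09 FPKM in 20E 9 h and 1.33 FPKM in insulin 9 h. The lower one, yellow-c, averaged 1.05 FPKM in 20E 9 h and 13.0 FPKM in insulin 9 h.

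Called in no comparison were 12 tested members. They were Cpr31A, Cpr60D, Cpr67B, Cpr78E, Cpr97Eb, Lcp1, Lcp2, Lcp3, Lcp4, Lcp65Ab2, Lcp9 and TwdlY. The 6 Lcp genes, Cpr60D, Cpr67B and Cpr78E are among the 13 that stood apart in single libraries. Of the rest, Cpr31A, Cpr97Eb and TwdlY stayed at or under 2.06 FPKM in every library.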

How the data were processed

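Poly(A) RNA of 18 wing disc samples went into directional libraries (labels' protocols). The authors deposited FPKM values per gene and library. The submitters' processing notes name cutadapt, TopHat2, Cufflinks and build BDGP5, without versions, roles or order, and any scaling between libraries is not given in the sources used here. Groups and replicate numbers came from sample titles and columns from the sample descriptions, which count columns from 0, and 0 columns were unmapped. Depth was estimated from the steps of low values, of which 84.7% to 89.7% lay within 0.1 of a whole fragment, where 20% would by chance. It entered no test, and no count test was run.

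The 8524 genes that reached 1 FPKM in 3 or more of 18 libraries were fitted as log2(FPKM + 1), with group as the only term over all libraries (lmFit, contrasts.fit and trended eBayes of limma 3.58.1, run under R 4.3.3). Tests were two-sided, with Benjamini-Hochberg adjustment over the 8524 genes of each comparison. The script was tested on simulated data with known changes. P-values rest on the spread between libraries within groups, pooled over all 6 groups and moderated across genes, not on the compared groups alone.

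Members and lists were chosen with earlier results of these data known. By the rule for named genes, called members with a group mean of at least 5 FPKM have their values given by library. Alternatives were dropping the filter, filtering on a mean of 5 FPKM or more, a pseudocount of 0.1, quantile or median-ratio scaling, only the groups compared, a replicate block, and fits without single libraries, the 2 libraries of highest gut markers, or (chosen after seeing the data) the 2 with larval cuticle transcripts. Figures used matplotlib 3.10.9.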

Additional observations from a re-analysis of the deposited data

Results flagged for a closer look

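For 6 cuticle genes the change from 4 h to 9 h differed between the hormones by the limma interaction test, written as the log2 change with time in 20E minus that in insulin. For Cpr49Ah the difference was -1.70 ± 0.23 (SE, adjusted p = 0.000159), for Cpr57A -1.33 ± 0.27 (adjusted p = 0.00268) and for Cpr67Fb -1.47 ± 0.38 (adjusted p = 0.0112). Cpr12A was the one with a positive difference, 0.88 ± 0.18 (adjusted p = 0.00255). Cpr47Ec had -2.60 ± 0.84 (adjusted p = 0.0339) and Cpr64Aa -0.78 ± 0.24 (adjusted p = 0.027), and both calls were lost without the filter and in several fits that left out 1 library.

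Over all 47 tested members there were 9 such calls, 1 higher and 8 lower (19.1%), against 26.5% of all genes (13.5% higher and 13% lower). The count of higher calls was 3 without the filter and 2 without 20E 4 h replicate 1, insulin 4 h replicate 2 or insulin 9 h replicate 3. Beside the 6 above, these were Lcp65Ae, Cpr72Ea and Cpr78Cc, with every group mean under 5 FPKM. Lcp65Ae passed the filter only through insulin 9 h, which favoured a lower call here. With 3 libraries per group, no single library was tested as an outlier within its group.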

How the results depend on the processing

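Among the 80 calls of the 23 named members, 56 held under every alternative run, 24 were lost under at least 1, and 0 changed direction. Calls were lost in 73 of 516 fits without single libraries, 15 of 80 without the filter, 14 of 80 with only the groups compared, 3 of 80 with a pseudocount of 0.1, 6 of 49 without the 2 libraries with larval cuticle transcripts and 5 of 33 without the 2 of highest gut markers. None was lost under either rescaling or among the 55 left by a mean of at least 5 FPKM. That filter leaves 21 members, so counts of called members fell to 12 for no hormone over uncultured, 7 for 20E 4 h over no hormone, 6 for insulin 4 h over no hormone, 8 and 11 for 20E over insulin at 4 h and 9 h, 5 and 4 for time in 20E and insulin, and 5 for the interaction. A pseudocount of 0.1 gave 7 for time in insulin, and the cause was not tested. Without single libraries the counts ranged 18 to 28, 10 to 13, 14 to 19, 14 to 18, 22 to 23, 6 to 10, 6 to 9 and 7 to 10 in the same order. Deviations from the group means over all genes tested gave 21 correlations of -0.447 to 0.188 between same-numbered libraries, 3 of them over 0.1. Some members still shared a replicate order, as Cpr51A and TwdlE were highest in replicate 1 and lowest in replicate 2 in every 4 h group. Others, such as Cpr49Ac, did not, and pairing of single members was not tested. With replicate number as a block the counts were 21, 15, 19, 17, 24, 9, 11 and 9, and Lcp65Ad lost 2 calls. Depth limits low members most, since 1 FPKM is about 15.0 fragments for the median tested member at the lowest depth.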

Other observations

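Insulin 4 h replicate 1 held the highest value of its group for several members. Cpr64Ac stood there at 104 FPKM, with the other replicates at 9.38 and 17.8 FPKM, and the untested neighbours Cpr64Ad and Cpr64Ab reached their highest values of all libraries there, 2.44 and 1.18 FPKM. Cpr51A (139 FPKM), Cpr66D (87.9 FPKM), Cpr64Aa (68.6 FPKM), TwdlE (27.1 FPKM) and Lcp65Ad (11.3 FPKM) were also highest in that replicate. Its gut markers summed to 2.36 FPKM. Cpr51A, Cpr64Aa and TwdlE were highest in replicate 1 of every 4 h group, so for these genes the pattern was not particular to the insulin library. Cpr64Ac, Cpr66D and Lcp65Ad were highest in replicate 1 in only 1 of the other 4 h cultures.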
